A study of Homo sapiens with 6 samples.

Results

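The 10 noncoding small nucleolar RNA (snoRNA) host genes described here are GAS5, ZFAS1, SNHG1, SNHG5, SNHG6, SNHG7, SNHG8, SNHG12, SNHG15 and SNHG16. They were listed by name as host genes whose spliced RNA is commonly a target of decay. The rule uses no measured value, but the list was drawn up with earlier results of these data known. They are 10 of the 58243 gene identifiers used. All 10 passed the filter on low counts and are among the 14415 genes tested. The cells were T24, an established human bladder cancer line, and all were transfected with an siRNA. NC received a control siRNA, and si-circ235-1 and si-circ235-2 received 1 of 2 siRNAs directed at the looping site of circ235, a circular RNA made from exons of CCNY. The labels name these groups siControl, siRNA1 and siRNA2, with 2 biological replicates each, and give no siRNA dose or time after transfection. Circular RNAs are not polyadenylated, so these libraries give no value for circ235 and the knockdown could not be checked in them.

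SnoRNAs guide the chemical modification of ribosomal RNA and are mostly cut out of the introns of other genes. In a noncoding snoRNA host gene the introns carry the snoRNAs, while the spliced exons encode no known protein. The spliced RNA of such a gene is exported, is scanned by ribosomes over short reading frames, and is commonly removed by nonsense-mediated decay (NMD), the pathway that destroys transcripts with an early stop codon. Many host genes also begin with a 5′ terminal oligopyrimidine (TOP) tract, the run of C and T found at the start of ribosomal protein mRNAs. The level of a host RNA in a poly(A) library is therefore a level over its annotated exons, not of the snoRNAs. Annotated exons cover 3756 of the 3927 bases of SNHG1, 4266 of 4595 in SNHG12 and 3647 of 3939 in SNHG15. Counts per gene there cannot separate spliced RNA from RNA that kept an intron, and this was not tested.

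The 6 libraries held between 15373992 and 19912893 counts. The labels do not say whether the replicates came from separate cultures on separate days, so p-values measure only the spread between these libraries. KRT7, KRT8 and KRT18, keratins of simple epithelium, lay between 619 and 2307 CPM, counts scaled to a common library size, and CD44 and VIM lay above 499 CPM in every library. Of the other epithelial and urothelial markers, PPARG lay between 22.6 and 51.1 CPM, FOXA1 and EPCAM between 1.28 and 3.42 CPM, and KRT19, CDH1, GATA3, UPK1B and UPK2 at or below 1.12 CPM. UPK3A had no count in any library, and the basal keratins KRT5 and KRT14 reached at most 0.191 CPM. The leukocyte markers PTPRC and CD3E had no count. The other leukocyte marker, CD14, lay at 9.94 and 10.98 CPM in si-circ235-1 and at 1.72 to 2.87 CPM in the other libraries, and its part in any result was not tested. The endothelial markers PECAM1 and VWF and the fibroblast markers PDGFRB and COL1A1 reached at most 1.47 CPM.

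The first bases of the annotated transcripts are shown because several host genes hold a run of C or T at or near their start. For each gene they are the first 25 bases of the transcript whose start has the most annotated starts within 10 bases, read 5′ to 3′ on the gene's strand, from GENCODE 29 (GRCh38). Capitals mark the longest run of at least 5 C or T that lies within the first 15 bases.
GAS5 (chr1:173867967-173867991, minus strand): gTCTTTTCgaggtaggagtcgactc
SNHG5 (chr6:85678712-85678736, minus strand): ggTCTTTTacgtcggccttcgcgag
SNHG12 (chr1:28581849-28581873, minus strand): CCTTTCTCCCCgccgcattcccggt
SNHG16 (chr17:76557769-76557793, plus strand): CTTTTCgaggtcggccgcgtggctg
SNHG1 (chr11:62855464-62855488, minus strand): cttattgggCTCCTgtctgcaggat
SNHG15 (chr7:44986650-44986674, minus strand): gtgcgcggcgcagcgcgcggcgtca

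Such a run lay within the first 15 bases of 6 of the 10 host genes (60%), the sixth being SNHG6. Of the printed sequences, only those of SNHG12 and SNHG16 begin with the run. It was present in 22.4% of all tested genes with an annotated transcript, in 57 of 87 TOP translation genes (65.5%) and in 5 of 15 other noncoding host genes (33.3%). SNHG15, ZFAS1, SNHG7 and SNHG8 had no such run in this window. The run is a description of letters at annotated starts, and the starts used in T24 cells were not measured. Within GAS5, 13 of 29 annotated transcripts begin within 10 bases of the base shown.

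The bases 45 to 16 before the start are shown because several host genes hold a TATA word there. RefSeq (GRCh38.p14) promoter entries were found for 8 of the 10 genes, and the window was searched for TATANAA on the gene's own strand, marked in capitals.
ZFAS1 (chr20:49278597-49278626, plus strand): aagccatctttggtTATATAAgggaggttc
SNHG5 (chr6:85678749-85678778, minus strand): gactccgggaggcTATATAAggagctactg
SNHG7 (chr9:136728200-136728229, minus strand): ggccgccgtacgcgcTATAAAAggcgcggc
SNHG12 (chr1:28581889-28581918, minus strand): ccgcgaggggcggccTATATAAgctcttgc

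The word was found in 4 of 8 host gene windows (50%), between 30 and 32 bases before the RefSeq start. It was found in 1.57% of all 35116 RefSeq promoter windows of this length, in 9.52% of those of TOP translation genes and in 5.88% of those of the other noncoding host genes. The RefSeq starts of GAS5, SNHG1, ZFAS1 and SNHG8 lie apart from the GENCODE starts used for the first bases, so the windows printed or searched refer to different starts in these genes. For ZFAS1 the TATA word and the absence of a run therefore belong to separate starts.

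The genes differ in the snoRNAs they carry. GAS5 is known as a host of box C/D snoRNAs, the class that guides 2′-O-methylation, although GENCODE 29 lists none within it. Box C/D snoRNAs are annotated within ZFAS1 (3), SNHG1 (7), SNHG5 (1), SNHG6 (1) and SNHG16 (3). Box H/ACA snoRNAs, which guide pseudouridylation, are annotated within SNHG8 (1), SNHG15 (1) and SNHG7, where 4 snoRNA genes are listed and 1 of them has no symbol. SNHG12 holds 5 snoRNA genes of both classes. Of these 26 snoRNA genes, 69 to 137 bases long, only 4 had a count in any library, and their sum was 4 to 24 counts per library. The snoRNAs themselves were thus close to unmeasured in these poly(A) libraries.

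In NC, GAS5, which is named for its rise in growth-arrested cells, had the highest level per length of the 10 genes. Levels between genes are compared as CPM per kilobase of all annotated exons. GAS5 stood at 107 ± 7.50 CPM per kilobase (SD, n = 2) and SNHG12, the lowest, at 4.61 ± 0.618. Between them came SNHG6 at 39.4 ± 9.90, SNHG8 at 33.4 ± 5.50, SNHG1 at 27.6 ± 1.12 and ZFAS1 at 26.3 ± 6.52. SNHG15 at 15.8 ± 2.30, SNHG5 at 15.3 ± 3.97, SNHG7 at 12.8 ± 3.63 and SNHG16 at 7.67 ± 0.375 followed. The 2 replicates overlapped between the neighbours SNHG6 and SNHG8, SNHG1 and ZFAS1, SNHG15 and SNHG5, and SNHG5 and SNHG7, so their order was not resolved. The order also depends on the length used. Per kilobase of the longest transcript, ZFAS1 stood at 54.8, SNHG8 at 45.8, SNHG5 at 41.6 and SNHG1 at 37.4 CPM, with GAS5 still highest at 228 and SNHG12 lowest at 9.84. In si-circ235-2 the ends of the order were again GAS5 at 57.6 ± 7.61 and SNHG12 at 3.13 ± 0.840, while SNHG16 at 12.1 ± 1.61 lay above SNHG15 at 7.83 ± 1.05.

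GAS5 gave 44.5% and 47.3% of the counts of the 10 genes in NC, 48.6% and 49.6% in si-circ235-1, and 41.6% and 41.4% in si-circ235-2. The 10 genes together held 0.0813% and 0.0805% of all counts in NC, 0.0582% and 0.0714% in si-circ235-1, and 0.0606% and 0.0546% in si-circ235-2. Their share of all counts was lower in each siRNA library than in either NC library. After scaling with TMM factors this did not hold, since their summed level was 794 CPM in si-circ235-1 replicate 2 and 780 CPM in NC replicate 2. In bulk RNA, fewer cells with a high level and less RNA per cell cannot be told apart.

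**Figure D1:**
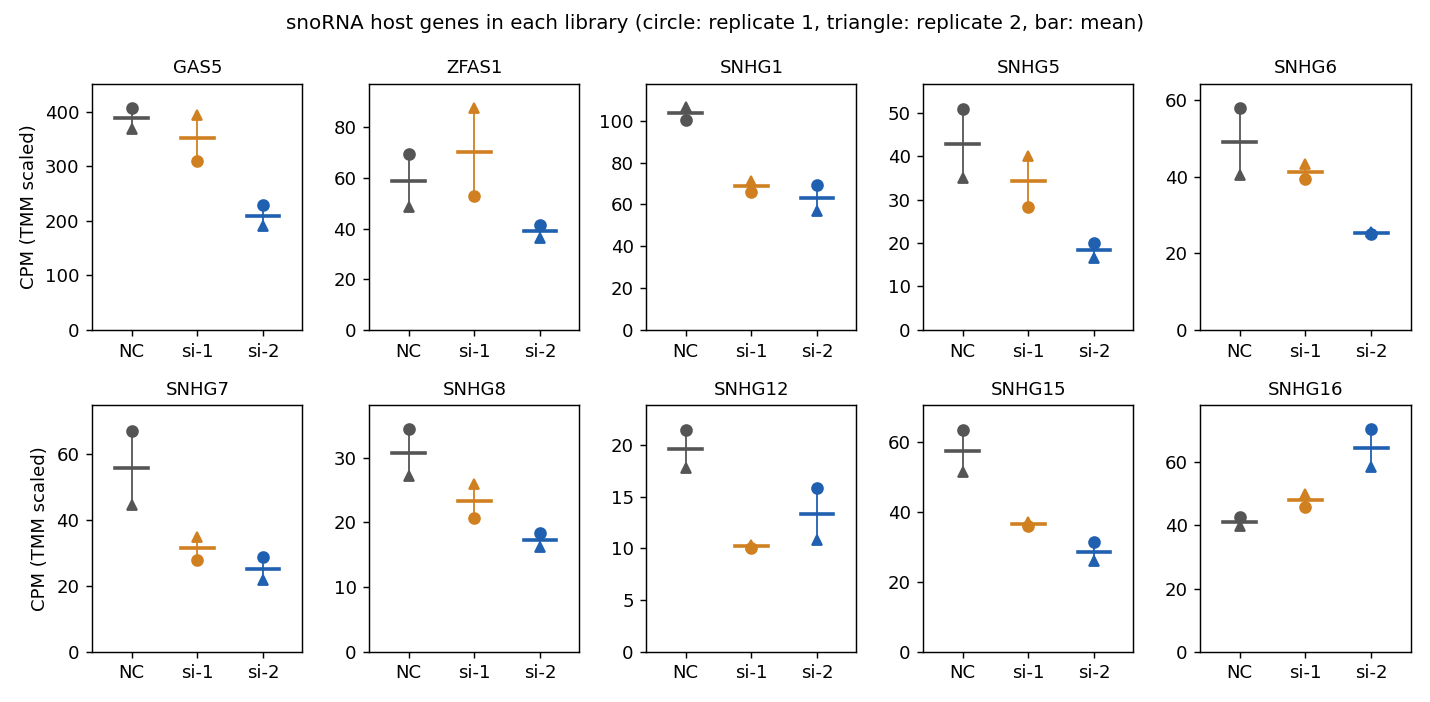
Level of each of the 10 host genes in each library, in CPM scaled with TMM factors on an axis from 0 (own scale per gene), for NC, si-circ235-1 (si-1) and si-circ235-2 (si-2). Circles are replicate 1, triangles replicate 2, thick bars the mean of 2 libraries and thin lines join the replicates. In GAS5 both si-circ235-2 libraries lie at or below 229 CPM and both NC libraries at or above 369 CPM, while SNHG16 runs the other way.

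The first question was whether the host genes differed between si-circ235-2 and NC. Most of them were lower with si-circ235-2. Of the 10 genes, 7 fell, 1 rose (SNHG16) and 2 (ZFAS1 and SNHG12) did not pass the test, at an adjusted p under 0.05 in edgeR's quasi-likelihood test over all 14415 genes. In this comparison 31.4% of all tested genes were called, 15.7% lower and 15.7% higher. The median log2 fold change of the 10 genes was -0.86, beside -0.0038 over all tested genes. The NC and si-circ235-2 libraries did not overlap in any of the 10 genes, and 71.4% of all tested genes also did not overlap, 35% lower and 36.4% higher. At an unadjusted p under 0.05 there were 9 host genes, where 43.1% of all tested genes lay under it. Without NC replicate 1 the host gene calls were lost and calls over all tested genes were also fewer, while the host gene median was -0.72. Without si-circ235-2 replicate 2 edgeR again called fewer host genes and fewer of all tested genes.

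Among the box C/D hosts, GAS5 (ENSG00000234741.7, chr1:173863900-173868882, minus strand) stood at 407 and 369 CPM in NC and at 229 and 190 CPM in si-circ235-2. Both siRNA libraries lay well below both NC libraries, and the fitted level was 53.9% of NC (log2 fold change -0.89, SE 0.20, adjusted p = 0.00917). SNHG5 (ENSG00000203875.10, chr6:85660950-85678748, minus strand), which hosts SNORD50B, had the largest fall of the 10 genes. It went from 50.8 and 35.02 CPM in NC to 20.1 and 16.6 CPM, a log2 fold change of -1.23 (SE 0.26, adjusted p = 0.00631). SNHG6 (ENSG00000245910.8, on chromosome 8), the host of SNORD87, stood at 57.9 and 40.4 CPM in NC and at 25.1 and 25.5 CPM in si-circ235-2, a log2 fold change of -0.96 (SE 0.22, adjusted p = 0.00889). In SNHG5 and SNHG6 the NC replicates lay further apart than the siRNA replicates. Without NC replicate 1 the log2 fold changes were -0.82 for GAS5, -0.94 for SNHG5 and -0.68 for SNHG6, with adjusted p-values of 0.0712, 0.0828 and 0.109. GAS5 also missed the threshold without si-circ235-2 replicate 2 (log2 fold change -0.76, adjusted p = 0.0637).

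SNHG1 (ENSG00000255717.6, chr11:62851988-62855914, minus strand), with the largest number of annotated snoRNAs, stood at 101 and 107 CPM in NC and at 69.2 and 56.9 CPM in si-circ235-2 (log2 fold change -0.72, SE 0.18, adjusted p = 0.0140). Its NC replicates were the closest of the genes that fell. The call was lost without TMM factors (log2 fold change -0.47, adjusted p = 0.0832). It was also lost without NC replicate 1, NC replicate 2 or si-circ235-2 replicate 2, with log2 fold changes of -0.76, -0.66 and -0.58 and adjusted p-values of 0.0674, 0.0550 and 0.123. ZFAS1 (ENSG00000177410.12, chr20:49278178-49295738, plus strand), a host of the SNORD12 family that runs antisense to ZNFX1, stood at 69.3 and 48.6 CPM in NC and at 41.5 and 36.3 CPM in si-circ235-2. Its libraries did not overlap, but its log2 fold change of -0.60 (SE 0.26) did not pass the test (adjusted p = 0.104).

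Among the hosts of box H/ACA snoRNAs, SNHG15 (ENSG00000232956.8, chr7:44983023-44986961, minus strand), which hosts SNORA9, stood at 63.4 and 51.5 CPM in NC and at 31.3 and 25.9 CPM in si-circ235-2. Its fitted level was 49.7% of NC, with the lowest adjusted p of the 10 genes (log2 fold change -1.01, SE 0.20, adjusted p = 0.00524). SNHG7 (ENSG00000233016.6, chr9:136721366-136728184, minus strand), the host of the SNORA17 genes, fell from 66.9 and 44.6 CPM to 28.8 and 21.6 CPM (log2 fold change -1.15, SE 0.25, adjusted p = 0.00748). Its longest transcript has the highest GC content of the 10 genes, 65.9%, and its call was lost once each library's dependence on transcript length and GC was removed (log2 fold change -0.39, adjusted p = 0.137). SNHG8 (ENSG00000269893.6, chr4:118278709-118279823, plus strand), the host of SNORA24, stood at 34.4 and 27.2 CPM in NC and at 18.3 and 16.2 CPM in si-circ235-2 (log2 fold change -0.83, SE 0.23, adjusted p = 0.0203). SNHG12 (ENSG00000197989.13, chr1:28578538-28583132, minus strand), the host of both classes, stood at 21.5 and 17.8 CPM in NC and at 15.9 and 10.8 CPM in si-circ235-2, with a log2 fold change of -0.56 (SE 0.26) that did not pass the test (adjusted p = 0.117). Without si-circ235-2 replicate 1 it was -0.86 and passed (adjusted p = 0.0372). Without NC replicate 1 the log2 fold changes were -0.86 for SNHG15, -0.83 for SNHG7 and -0.66 for SNHG8, with adjusted p-values of 0.0648, 0.0996 and 0.176. SNHG8 also missed the threshold without si-circ235-2 replicate 2 (log2 fold change -0.74, adjusted p = 0.0627) and without TMM factors (-0.57, adjusted p = 0.0879).

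SNHG16 (ENSG00000163597.14, chr17:76557766-76565348, plus strand), the host of the SNORD1 genes, was the exception. It stood at 42.6 and 39.7 CPM in NC and at 70.7 and 58.6 CPM in si-circ235-2, so that both siRNA libraries lay above both NC libraries. The log2 fold change was 0.65 (SE 0.19, adjusted p = 0.0240). It fell to 0.25 (adjusted p = 0.239) once the length and GC trend was removed, and the call was also lost against a minimum change of 1.2-fold (adjusted p = 0.0563). Leaving out NC replicate 1, NC replicate 2 or si-circ235-2 replicate 1 gave log2 fold changes of 0.70, 0.61 and 0.51, with adjusted p-values of 0.108, 0.0956 and 0.148. SNHG16 has the longest transcript of the 10 genes, at 3607 bases, where the median longest transcript was 1848 bases for the host genes and 3354 bases for tested genes.

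**Figure D2:**
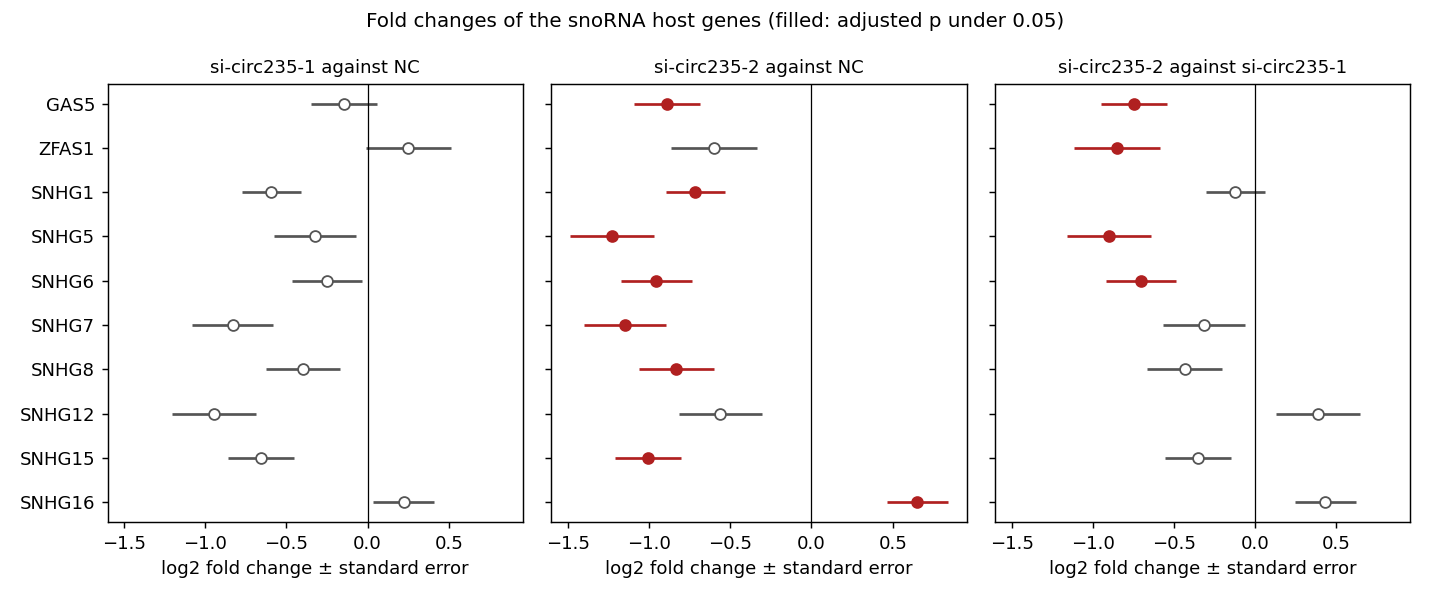
Log2 fold change of each host gene with its standard error from the fit of 3 groups with 2 libraries each, for si-circ235-1 against NC, si-circ235-2 against NC and si-circ235-2 against si-circ235-1. Filled red points have an adjusted p under 0.05 and open points do not, with 0, 8 and 4 filled points in the 3 panels.

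The second question was whether si-circ235-1 gave the same. With si-circ235-1, 8 of the 10 host genes had a lower mean than NC and 2 a higher one, but no host gene passed edgeR's test. In this comparison 5.88% of all tested genes were called, 3.64% lower and 2.24% higher. The median log2 fold change of the host genes was -0.36, beside -0.03 over all tested genes. It became -0.15 when NC replicate 1 was left out. Dropping 1 library of si-circ235-1 moved it to -0.22 (replicate 1) or -0.59 (replicate 2). At an unadjusted p under 0.05 there were 4 host genes, where 25.3% of all tested genes lay under it. DESeq2 called 4 host genes, all lower, and 1519 of the 14415 tested genes, 805 of them lower. The libraries did not overlap in 6 host genes, 5 of them lower, as against 55% of all tested genes (28.8% lower, 26.2% higher). The comparisons of the siRNAs with NC share the NC libraries and are not independent of each other.

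The 4 host genes nearest to a call were SNHG12, SNHG7, SNHG1 and SNHG15. SNHG12 stood at 10.1 and 10.3 CPM in si-circ235-1, with a log2 fold change of -0.94 (SE 0.26, adjusted p = 0.0570). SNHG7 stood at 27.8 and 34.8 CPM, with a log2 fold change of -0.83 (SE 0.25, adjusted p = 0.0732). Both siRNA libraries lay below both NC libraries in these genes. SNHG1 stood at 65.8 and 71.4 CPM in si-circ235-1 (log2 fold change -0.59, SE 0.18, adjusted p = 0.0761). SNHG15 stood at 35.9 and 37.0 CPM (log2 fold change -0.66, SE 0.20, adjusted p = 0.0761). DESeq2 called these 4 genes lower. SNHG12 and SNHG7 were also called by edgeR when either si-circ235-2 library was left out of the shared fit, with adjusted p-values of 0.0127 to 0.0252.

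The other host genes differed less between si-circ235-1 and NC. GAS5 stood at 309 and 394 CPM in si-circ235-1, a spread that overlapped NC (log2 fold change -0.14, SE 0.20, adjusted p = 0.710). ZFAS1 at 52.7 and 87.4 CPM, SNHG5 at 28.2 and 40.1 CPM and SNHG6 at 39.2 and 43.3 CPM also overlapped NC. SNHG8 stood at 20.6 and 26.0 CPM (log2 fold change -0.40, SE 0.23, adjusted p = 0.309), and SNHG16 at 46.0 and 50.0 CPM (log2 fold change 0.22, SE 0.19, adjusted p = 0.507).

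A call with one siRNA and none with the other does not show that they differ, so the siRNAs were compared directly. In si-circ235-2 against si-circ235-1, 4 host genes were lower (ZFAS1, SNHG5, GAS5 and SNHG6) and none was called higher, where 39.7% of all tested genes were called, 18.6% lower and 21.1% higher. At an unadjusted p under 0.05 there were 5, as against 48.9% of all tested genes. The libraries did not overlap in 8 host genes, 6 of them lower, as against 72.1% of all tested genes (33.7% lower, 38.4% higher). The largest difference with a call was that of SNHG5 (log2 fold change -0.90, SE 0.26, adjusted p = 0.0177). ZFAS1 followed at -0.85 (SE 0.26, adjusted p = 0.0249), GAS5 at -0.75 (SE 0.20, adjusted p = 0.0147) and SNHG6 at -0.70 (SE 0.22, adjusted p = 0.0250). These 4 calls were lost without TMM factors, and SNHG12 and SNHG16 were then called higher. They were also lost without si-circ235-1 replicate 2, at log2 fold changes of -0.63, -0.45, -0.57 and -0.64 in the order given, and without si-circ235-2 replicate 2, at -0.77, -0.75, -0.62 and -0.71. SNHG6 missed the threshold whichever siRNA library was left out (adjusted p = 0.0566 to 0.127).

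In the other 6 host genes the siRNAs were not told apart by this test. SNHG1 differed by a log2 fold change of -0.12 (SE 0.18, adjusted p = 0.618), SNHG7 by -0.32 (SE 0.25, adjusted p = 0.338) and SNHG15 by -0.35 (SE 0.20, adjusted p = 0.188). SNHG8 differed by -0.43 (SE 0.23, adjusted p = 0.156), and the differences of SNHG12 and SNHG16 were 0.38 and 0.43 (SE 0.26 and 0.19, adjusted p = 0.259 and 0.0904). The median over the 10 genes was -0.39, beside 0.04 over all tested genes.

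Both siRNAs were designed against the same circular RNA, and their 4 libraries were also compared with NC as 1 group. This fit has no term for the siRNA, so any difference between the siRNAs counts as spread between replicates. Its standard errors for the host genes were 0.21 to 0.38, beside 0.18 to 0.26 for si-circ235-2 against NC. With the siRNAs as 1 group edgeR called no host gene, and it called none of the 14415 genes (0%). That does not show that the siRNAs shared no change. There were 4 host genes with an unadjusted p under 0.05, where 9.57% of all tested genes lay under it, and DESeq2 called no host gene and 160 genes in all. SNHG7, at 50.7% of NC (log2 fold change -0.98, SE 0.27), SNHG15, at -0.82 (SE 0.24), SNHG12, at -0.74 (SE 0.27), and SNHG1, at -0.65 (SE 0.21), were those 4, with adjusted p-values of 0.467 to 0.490. In these genes and in SNHG8 all siRNA libraries lay below both NC libraries, and in SNHG16 all lay above them, where 22.8% of all tested genes did not overlap (11.3% lower, 11.6% higher).

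The profiles of the host genes over the 6 libraries were also set side by side. Each gene's centred log2 CPM was compared with the mean of the other 9, as a description over 6 libraries that share group and depth, and the same was not computed for other genes. Pearson's r was 0.993 for SNHG8, 0.964 for SNHG7, 0.952 for SNHG5, 0.947 for SNHG15, 0.901 for GAS5, 0.897 for SNHG6 and 0.845 for SNHG1. It was lower for ZFAS1 (0.668) and SNHG12 (0.565), and negative for SNHG16 (-0.751). The mean profile stood at 0.52 and 0.20 in NC, -0.14 and 0.13 in si-circ235-1, and -0.23 and -0.49 in si-circ235-2, in log2 units around the mean of the libraries. NC replicate 1 was thus the highest and si-circ235-2 replicate 2 the lowest of the 6 libraries.

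The genes outside the list whose profile was most like that mean, of 10367 with at least 5 CPM on average, were COA4 (r = 0.997 over 6 libraries), SNHG32 (0.994), PML (0.992), PPP1R35 (0.992) and HES4 (0.991). COA4 is an assembly factor of cytochrome c oxidase, PML the scaffold of nuclear bodies, HES4 a transcriptional repressor of the HES family, and SNHG32 a further snoRNA host gene, typed as protein-coding in GENCODE 29. COA4 stood at 126 and 104 CPM in NC, 82.7 and 95.1 CPM in si-circ235-1, and 75.3 and 62.2 CPM in si-circ235-2. SNHG32 stood at 110 and 73.5 CPM in NC, 52.4 and 64.5 CPM in si-circ235-1, and 47.6 and 36.7 CPM in si-circ235-2. Both followed the order of the host gene mean in every library, which their choice by this correlation largely fixed.

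Several host genes lie on or beside a gene of the opposite strand, and counting without strand cannot assign reads where exons overlap. ZFAS1 overlaps ZNFX1, a zinc finger protein with a helicase domain. ZNFX1 rose in si-circ235-2 from a mean of 98.2 to 216 CPM (log2 fold change 1.13, SE 0.21, adjusted p = 0.00418), while ZFAS1 had a lower mean there. Reads of ZNFX1 counted to ZFAS1, or the reverse, were not tested.

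DIPK1B, a kinase-like protein of the endoplasmic reticulum, overlaps SNHG7, and TRNAU1AP, which binds the selenocysteine tRNA, overlaps SNHG12. DIPK1B fell in si-circ235-2 (log2 fold change -0.73, SE 0.23, adjusted p = 0.0340), and TRNAU1AP fell (log2 fold change -0.58, SE 0.20, adjusted p = 0.0497). SLC3A2, the heavy chain of amino acid transporters, starts within 2 kilobases of SNHG1 on the other strand without overlapping it, and also fell (log2 fold change -0.82, SE 0.23, adjusted p = 0.0219). With si-circ235-1 the 3 genes stood at -0.09 to 0.11, where the mean of their host genes was lower than NC.

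**Figure D3:**
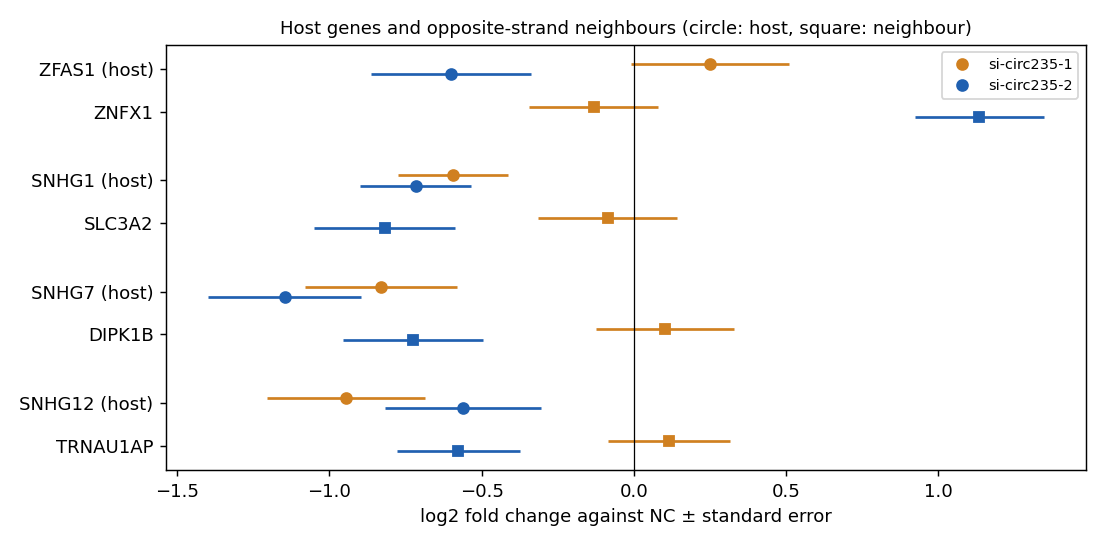
Log2 fold change against NC with its standard error for 4 host genes (circles) and genes of the opposite strand that overlap them or start close by and passed the test in si-circ235-2 (squares), for si-circ235-1 in orange and si-circ235-2 in blue, with 2 libraries per group. ZNFX1 lies at 1.13 in si-circ235-2 and ZFAS1 at -0.60, whereas SLC3A2, DIPK1B and TRNAU1AP lie below 0 with their host genes.

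Lists of related genes were set beside the host genes, and in each the count called is given with the median. Some lists share genes, so their counts are not independent of each other. The other noncoding host genes had 15 of 20 members tested. In si-circ235-2, 5 fell and 1 rose, where 15.7% of all tested genes were called in each direction, and the median log2 fold change was -0.74. SNHG19 fell from 20.9 and 9.72 CPM in NC to 2.66 and 3.73 CPM (log2 fold change -2.25, SE 0.41, adjusted p = 0.00396). SNHG17, SNHG32 and EPB41L4A-AS1 fell with log2 fold changes of -1.15, -1.12 and -0.92. SNHG29, which also fell, and SNHG14, which rose, are named after their values were seen. With NC replicate 1 left out, where calls over all tested genes were also fewer, these calls were lost and the median was -0.63. In si-circ235-1, where 5.88% of all tested genes were called, only SNHG4 was called, at -2.33, and it too is named after its value was seen. The count was 0 without NC replicate 2 or without either si-circ235-1 library (3 to 5 at an unadjusted p under 0.05).

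The protein-coding host genes, many of them ribosomal protein genes, had 36 of 36 tested, and 20 of the 36 are also on another list. In si-circ235-2, 18 fell and 1 rose (HSPA9), where 15.7% of all tested genes were called in each direction. The median was -0.62. RPS12, RPL13A and RPL12 fell with log2 fold changes of -1.47, -1.28 and -1.26. In si-circ235-1 edgeR called none, while DESeq2 called 2 and 5 lay at an unadjusted p under 0.05, and the median was -0.02. Of all 14415 tested genes edgeR called 847 and DESeq2 1519 there, and 25.3% lay at an unadjusted p under 0.05 in edgeR. In si-circ235-2, fewer of these genes were called without NC replicate 1, as over all tested genes, and the median was -0.59.

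The TOP translation genes, mostly ribosomal proteins and translation factors, had 87 of 88 tested, and 17 of the 88 are also on another list. In si-circ235-2, 71 fell and 2 rose (PABPC1 and EIF3L), where 15.7% of all tested genes were called in each direction. The median was -1.19, lower than that of the host genes. RPL36 and RPL8 fell with log2 fold changes of -2.45 and -1.96. Together these genes held 20.1% and 16.7% of counts in NC, 17.8% and 20.5% in si-circ235-1, and 11.6% and 10.2% in si-circ235-2. In si-circ235-1 edgeR called none, while DESeq2 called 4 and 6 lay at an unadjusted p under 0.05, and the median was 0.18, where that of the host genes was -0.36. The TOP median there became 0.41 when NC replicate 1 was left out and changed sign, to -0.04, when NC replicate 2 was. Dropping 1 library of si-circ235-1 moved it to 0.27 (replicate 1) or 0.02 (replicate 2). In si-circ235-2, fewer of these genes were called without NC replicate 1, as over all tested genes (median -0.90).

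The snoRNP proteins, which bind and assemble snoRNAs, had 17 of 17 tested, and 3 of the 17 are also on another list. In si-circ235-2, 10 fell and 2 rose (NOLC1 and SHQ1), where 15.7% of all tested genes were called in each direction. The median was -0.99. FBL, the methyltransferase of box C/D particles, fell from 476 and 332 CPM in NC to 181 and 138 CPM (log2 fold change -1.34, SE 0.23, adjusted p = 0.00330). NHP2 and NOP10, core proteins of box H/ACA particles, fell with log2 fold changes of -1.56 and -1.26. PIH1D1, an assembly factor, had one of -1.23. In si-circ235-1, where 5.88% of all tested genes were called, RUVBL1, an ATPase of particle assembly, was the 1 gene called (log2 fold change -0.78, SE 0.20, adjusted p = 0.0476). With any NC or si-circ235-1 library left out, or against a minimum change of 1.2-fold, edgeR called 0 of the 17 there (2 or 3 at an unadjusted p under 0.05). In si-circ235-2, fewer of the snoRNP proteins were called without NC replicate 1, as over all tested genes, and the median was -0.82.

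The NMD factors moved both ways. In si-circ235-2, 7 of 24 rose and 5 fell, where 15.7% of all tested genes were called in each direction. The median was -0.09, and 0.17 without TMM factors. SMG6, the endonuclease of the pathway, stood at 6.17 and 13.0 CPM in NC and at 29.8 and 26.9 CPM in si-circ235-2 (log2 fold change 1.56, SE 0.39, adjusted p = 0.0126). SMG8, a regulator of the SMG1 kinase, rose by a log2 fold change of 1.45 (SE 0.38, adjusted p = 0.0153). UPF3B, which links exon junctions to the decay machinery, had a log2 fold change of -1.36 (SE 0.31, adjusted p = 0.00877). MAGOH, a core protein of the exon junction complex, had one of -1.26 (SE 0.21, adjusted p = 0.00300). Without NC replicate 1 fewer factors were called, as over all tested genes, and the median was -0.03.

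UPF1, the central helicase of the pathway, is named after its values were seen. It had a log2 fold change of 0.26 in si-circ235-2 (SE 0.17, adjusted p = 0.275) and of -0.32 in si-circ235-1 (SE 0.17, adjusted p = 0.264). Between the siRNAs it differed by a log2 fold change of 0.58 (SE 0.17, adjusted p = 0.0202), higher in si-circ235-2. In si-circ235-1, where 5.88% of all tested genes were called, DCP2, the decapping enzyme, was the 1 factor called. It stood at 27.0 and 24.9 CPM in NC, at 68.7 and 86.2 CPM in si-circ235-1 and at 16.9 and 28.7 CPM in si-circ235-2 (log2 fold change 1.58 in si-circ235-1, SE 0.26, adjusted p = 0.0119). With either NC library or si-circ235-1 replicate 2 left out, edgeR called 0 of the 24 factors in si-circ235-1 (3 to 6 at an unadjusted p under 0.05). The difference between the siRNAs in DCP2 passed the test (log2 fold change -1.76, SE 0.26, adjusted p = 0.000949).

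The mRNAs described as NMD-sensitive had 12 of 12 tested. In si-circ235-2 GADD45B, a stress-induced gene, fell from 54.7 and 41.3 CPM in NC to 21.3 and 15.3 CPM (log2 fold change -1.39, SE 0.24, adjusted p = 0.00311). It was the 1 gene called there, where 31.4% of all tested genes were called, and the median was -0.29. In si-circ235-1, where 5.88% of all tested genes were called, NAT9, an acetyltransferase, was the 1 gene called (log2 fold change -0.91, SE 0.19, adjusted p = 0.0265). The median there was -0.37. With any NC or si-circ235-1 library left out, or against a minimum change of 1.2-fold, edgeR called 0 of the 12 there (2 to 6 at an unadjusted p under 0.05). In si-circ235-2 against si-circ235-1, ARC (named after its value was seen), UPP1, DDIT3 and GADD45B were called lower, with log2 fold changes of -1.30, -0.97, -0.83 and -0.72. CDKN1A, a cell cycle inhibitor, was the 1 gene called higher (log2 fold change 0.65, SE 0.19, adjusted p = 0.0197). Of all tested genes 39.7% were called in this comparison, 18.6% lower and 21.1% higher. With si-circ235-1 replicate 2 dropped, edgeR called 0 genes of the list in this comparison, and 4 had an unadjusted p under 0.05. Of the 12, 4 were called higher and 1 lower without TMM factors.

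**Figure D4:**
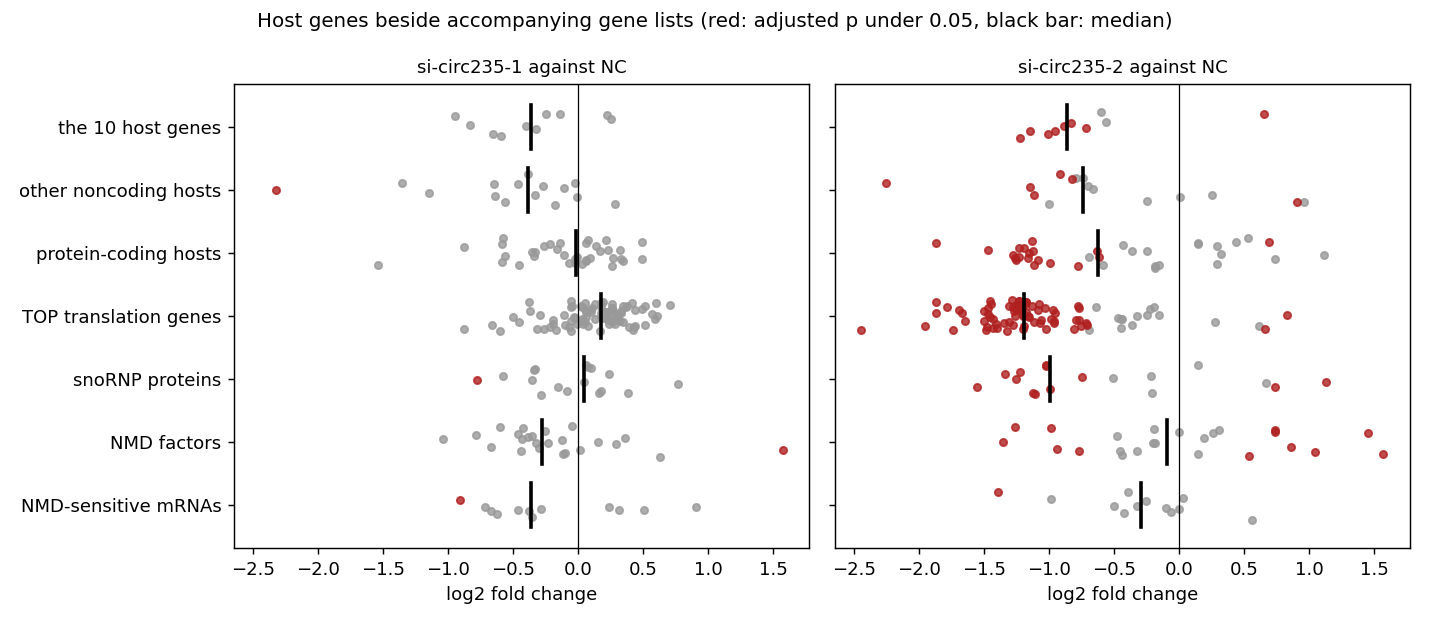
Log2 fold change against NC of the genes of each list, 1 point per gene, with si-circ235-1 on the left and si-circ235-2 on the right (2 libraries per group). Red points have an adjusted p under 0.05 and black bars are medians, which lie at -0.36 and -0.86 for the 10 host genes and at 0.18 and -1.19 for the TOP translation genes.

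The direction of the si-circ235-2 values did not depend on the processing tried. The log2 fold change of each host gene kept its sign under all 13 alternatives to the reported fit. The calls did depend on it. In the reported fit 8 host genes and 31.4% of all tested genes were called. The host gene calls stayed at 8 with DESeq2, with the replicate number as a block and with the si-circ235-2 and NC libraries fitted alone. They were 6 without TMM factors and 6 after removal of the length and GC trend. The share of all tested genes called was not set beside each of these counts. Without TMM factors the median of all tested genes was 0.25, and the host gene median was -0.60.

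**Figure D5:**
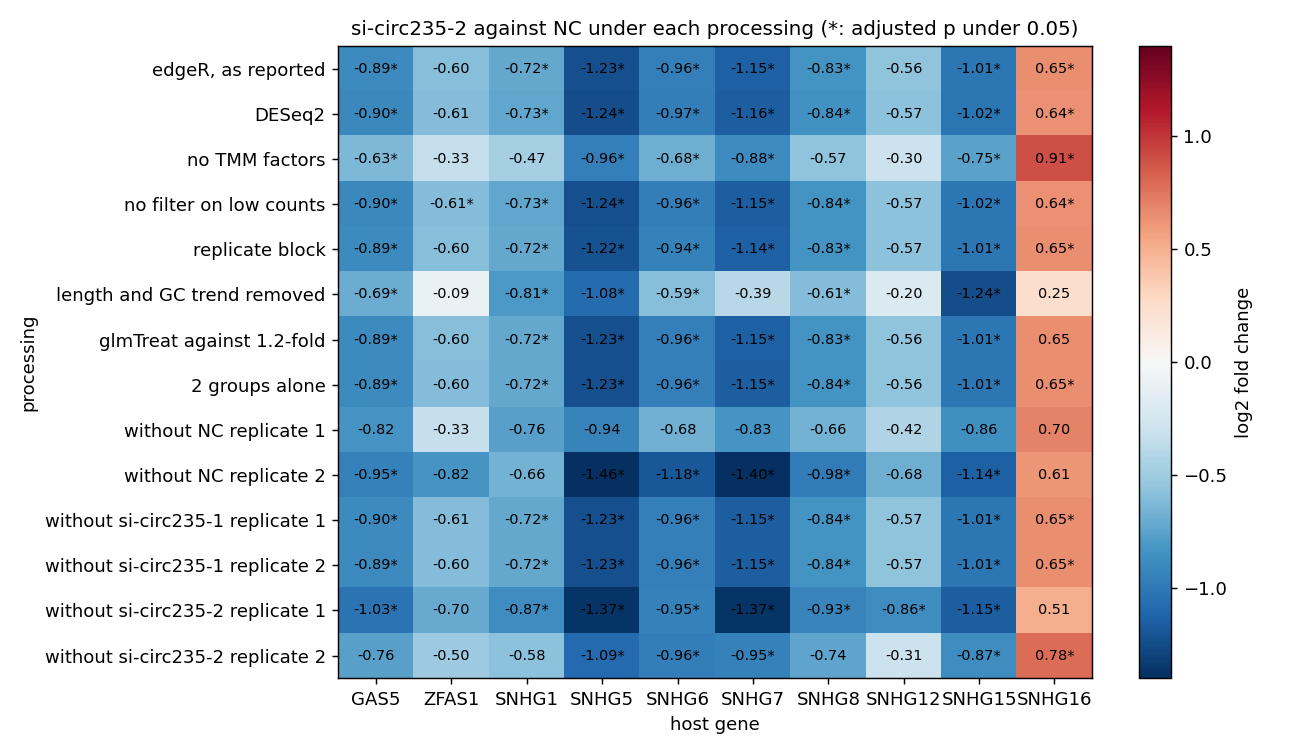
Log2 fold change of each host gene in si-circ235-2 against NC under the reported fit and each alternative (rows), printed in each cell and shown by colour (blue lower, red higher), with a star for an adjusted p under 0.05. The row without NC replicate 1 has no star, while every cell keeps the sign of the reported value.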

How the data were processed

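Counts of reads per gene were deposited by the authors as whole numbers without normalization for 6 libraries (2 per group). The libraries were oligo dT enriched and not strand-specific. The submitters' processing notes name FastQC, cutadapt, STAR and hg38, whereas the tool that counted reads and its annotation release are not given in the sources. Of 58288 identifiers, 45 copies on the Y pseudoautosomal regions were left out. Symbols, coordinates, lengths and GC content came from GENCODE 29 (GRCh38), which held 99.5% of the identifiers.

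Genes were tested with the quasi-likelihood test of edgeR 4.0.16 under R 4.3.3 (TMM, filterByExpr by group, called at a Benjamini-Hochberg adjusted p under 0.05) in 1 fit with a mean per group, and in a separate fit with the siRNA libraries as 1 group. Levels are CPM scaled by TMM factors. The comparisons were tested on simulated data in which 200 genes were changed. A log2 change of 1 was recovered in 23.6% of those tested for si-circ235-1 against NC and in 38.6% for si-circ235-2 against NC. It was recovered in 34.7% between the siRNAs and in 42.6% with both siRNAs as 1 group. The simulation of that group gave both siRNAs the same change, whereas 39.7% of all tested genes were called between the siRNAs in the data. Its recovery therefore does not describe the fit of that group to the real libraries. A log2 change of 2 was recovered in 85.6% to 94.2%, and 6 to 22 unchanged genes were called per simulation. Replicates differed by more than sampling noise, their chi-square divided by its degrees of freedom being 21.7 to 33.3. Each result was recomputed with DESeq2 1.42.0, without TMM factors, without the low-count filter, with the replicate number as a block, after subtracting spline trends (5 degrees of freedom) in length and GC per library, against a minimum change of 1.2-fold, with the compared groups alone, and with each library left out. Where this left 1 library in a group, its spread was taken to be that of the others.

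The host genes and accompanying lists were chosen with earlier results of these data known. All host genes are named. From each list at most 4 called genes with the largest change and at least 5 CPM are named, besides overlapping genes, genes starting within 2 kilobases on the other strand, and the 5 genes with the most similar profile. HSPA9, PABPC1, EIF3L, NOLC1 and SHQ1 lie outside this rule and were named after their values were seen, as were the genes marked so above. A few items that this rule would name are not reported here.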

Additional observations from a re-analysis of the deposited data

How the results depend on the processing

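In si-circ235-1 against NC, where edgeR called 0 of the 10 host genes, DESeq2 called 4, the fit without a filter on low counts 2, the removal of the length and GC trend 3 and the 2 groups fitted alone 3, all lower. Leaving out 1 library at a time gave 0 to 2. All genes called numbered 847 and became 1519, 1678, 1864 and 1642 under the same alternatives, 392 against a minimum change of 1.2-fold, and 0 (without si-circ235-1 replicate 2, with 2118 at an unadjusted p under 0.05) to 1493 with 1 library left out. In si-circ235-2 against NC the 8 called host genes became 0 to 8 and the 4530 called genes 783 to 4231 with 1 library left out, the lowest without NC replicate 1. In si-circ235-2 against si-circ235-1 the 4 called host genes became 2, both higher, without TMM factors, and 0 to 4 with 1 library left out, where the genes called ranged from 2810 to 5564. With both siRNAs as 1 group, the 0 genes called became 160 with DESeq2 and 4 without a filter.

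Signs changed in values that had not passed the test. In si-circ235-1 against NC the log2 fold change ranged from -0.33 to 0.017 for GAS5, from -0.16 to 0.56 for ZFAS1 and from -0.45 to 0.031 for SNHG6 with 1 library left out. Their signs changed without si-circ235-1 replicate 1, si-circ235-1 replicate 2 and NC replicate 1 in turn. In si-circ235-2 against si-circ235-1 it became 0.21 for SNHG1 and 0.015 for SNHG7 without TMM factors, and 0.17 for SNHG7 with the length and GC trend taken out. That of SNHG1 ranged from -0.27 to 0.015 with 1 library left out, the highest without si-circ235-2 replicate 2. For ZFAS1 with both siRNAs as 1 group it became 0.14 with the trend taken out and ranged from -0.44 to 0.16 with 1 library left out (0.16 without NC replicate 1 and 0.04 without si-circ235-2 replicate 2). The cause was not tested.

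The replicate number as a block left 0, 8 and 4 host genes called in the first 3 comparisons, and 937 and 4750 genes called for the siRNAs against NC. The deviations of same-numbered libraries correlated at -0.09, 0.15 and 0.14, so the numbers were not taken to pair the libraries. Each group holds 2 libraries, which limits the precision of these values.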
